A study of Mus musculus with 32 samples.

Results

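The genes described here are 10 genes of the endoplasmic reticulum (ER), Hspa5, Hsp90b1, Calr, Pdia4, Dnajb9, Dnajb11, Xbp1, Herpud1, Sdf2l1 and Creld2, chosen by symbol from a table of 33397 mouse genes; all 10 were found and all 10 passed the filter on low values. RNA-seq of mouse gastrocnemius (GAS) muscle was performed at 8 time points after the sciatic nerve was cut, 0, 1, 3, 5, 7, 14, 21 and 28 d, with 4 samples per time point and 32 in all. The mice were C57BL/6, given in the study's methods as C57BL/6J males aged 6 to 8 weeks, and a short stretch of the left sciatic nerve was cut out. The labels give the same strain, tissue and nerve transection for every group, the 0 d group included, while the study describes its controls as sham-operated mice without transection; the 0 d columns, marked C in the table, were taken as the baseline, and whether they are those sham mice is not stated in the labels. Table columns could be tied to a time point but not to a single labelled animal, and the labels do not say that the 4 samples of a time point were separate mice; the study describes its samples as biologically independent. The p-values measure the spread between these samples.

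The ER is where secreted and membrane proteins are folded. Hspa5 (BiP) is the Hsp70 chaperone of the ER lumen, and it also binds the stress sensors Ire1, Atf6 and Perk and keeps them inactive. When unfolded proteins accumulate, Ire1 splices the mRNA of the transcription factor Xbp1, Atf6 is cleaved to an active form, and Perk slows translation while Atf4 is made; together these arms form the unfolded protein response, which raises chaperone and degradation genes. In skeletal muscle the sarcoplasmic reticulum is a specialised form of the ER and holds calreticulin (Calr) among its calcium-binding proteins.

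Levels were given by the authors as FPKM, fragments normalised to exon length and library depth. The length that fits the values is that of all annotated exons of a gene together. Where only part of those exons is used the level is understated, so comparisons of level between genes are approximate. Total depth, recovered from the FPKM values and exon lengths, ranged from 14199902 to 17561584 fragments, with a median sample at 16663160.5. The scarcest of the 10 genes, Sdf2l1, rested on 48 to 274 fragments per sample and Hspa5 on 2885 to 12692, so values of Sdf2l1 and Creld2 (90 to 287 fragments) carry the largest counting error. The extraction protocol in the labels speaks of another tissue, but the summed FPKM of 6 myofibre markers (Ckm, Acta1, Myh4, Tnnt3, Pvalb and Actn3) was 39380 to 42680 at 0 d, and it was 21630 to 25370 at 3 d. The markers did not all move alike. From 0 d to 14 d the mean of Acta1 went from 13880 to 9627 and that of Ckm from 3243 to 952, while Actn3 went from 1865 to 3931. One library stood apart: sample a of 3 d had a mean correlation of 0.968 with the other 3 d samples, against 0.979 to 0.983 for those. Its summed macrophage markers reached 288 FPKM against 497 to 984, and its summed fibroblast markers 258 against 477 to 681. The changes of the 10 genes and the list counts at 3 d are therefore also given without it; over all genes 4618 were then called in place of 4254.

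Xbp1 and the cleaved form of Atf6 are known to act through the ER stress response element (ERSE), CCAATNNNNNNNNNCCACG, and the shorter ERSE-II, ATTGGNCCACG. Exact copies of these letters were searched on both strands of the RefSeq promoter windows (GRCm38.p6, 250 bases before to 50 after each gene's start). ERSE was present in 4 of the 10 genes and in 37 of all 27025 genes with a window (0.137%). ERSE-II was present in 2 of the 10 genes and in 12 of all genes (0.0444%). No window held both. The 10 genes were chosen by name as ER genes, so these counts describe them and do not test an enrichment. The matched stretches are shown because 6 of the 10 genes carry them. Each runs 5′ to 3′ along the gene, with the match in capitals, and a match that begins with CGTGG lies on the other strand:
Hspa5 (chr2:34772020-34772048, plus strand): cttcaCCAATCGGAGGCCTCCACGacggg
Hsp90b1 (chr10:86705633-86705661, minus strand): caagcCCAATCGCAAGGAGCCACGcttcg
Hsp90b1 (chr10:86705528-86705556, minus strand): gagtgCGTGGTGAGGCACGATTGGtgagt
Calr (chr8:84847070-84847098, minus strand): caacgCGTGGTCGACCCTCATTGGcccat
Creld2 (chr15:88819515-88819543, plus strand): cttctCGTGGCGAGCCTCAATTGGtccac
Herpud1 (chr8:94386368-94386396, plus strand): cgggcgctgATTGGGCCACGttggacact
Dnajb11 (chr16:22857843-22857871, plus strand): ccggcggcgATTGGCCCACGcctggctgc

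Relative to the RefSeq start, the Hspa5 match spans positions -65 to -47, the Calr match -162 to -144 and the Creld2 match -126 to -108. Hsp90b1 held a pair of copies, at -212 to -194 and at -107 to -89. The ERSE-II of Herpud1 lies at -52 to -42, and that of Dnajb11 lies after the start, at 8 to 18. No exact match was found in the windows of Pdia4, Dnajb9, Xbp1 and Sdf2l1, which says only that these letters are not in those windows. The Hspa5 stretch lies inside the longer GENCODE gene, whose start is upstream of RefSeq's.

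At 0 d the 10 genes differed in FPKM by an order of magnitude. Herpud1 (63.4 ± 4.25, SD, n = 4), Calr (51.6 ± 3.66) and Hspa5 (48.9 ± 2.48) were the most abundant. Xbp1 (19.7 ± 1.71), Dnajb9 (19.2 ± 0.728) and Hsp90b1 (18.9 ± 1.48) lay close together, with Dnajb11 at 11.3 ± 1.17 and Pdia4 at 8.63 ± 0.833 below them. Creld2 (5.22 ± 0.767) and Sdf2l1 (3.49 ± 0.430) were lowest. The summed FPKM of the 10 genes was 250.2 ± 11.9 at 0 d, 583 ± 18.4 at 3 d and 446 ± 9.85 at 28 d. Hspa5 made up 19.6 ± 1.16% of that sum at 0 d, 29.8 ± 2.32% at 3 d and 23.8 ± 1.10% at 28 d.

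**Figure D1:**
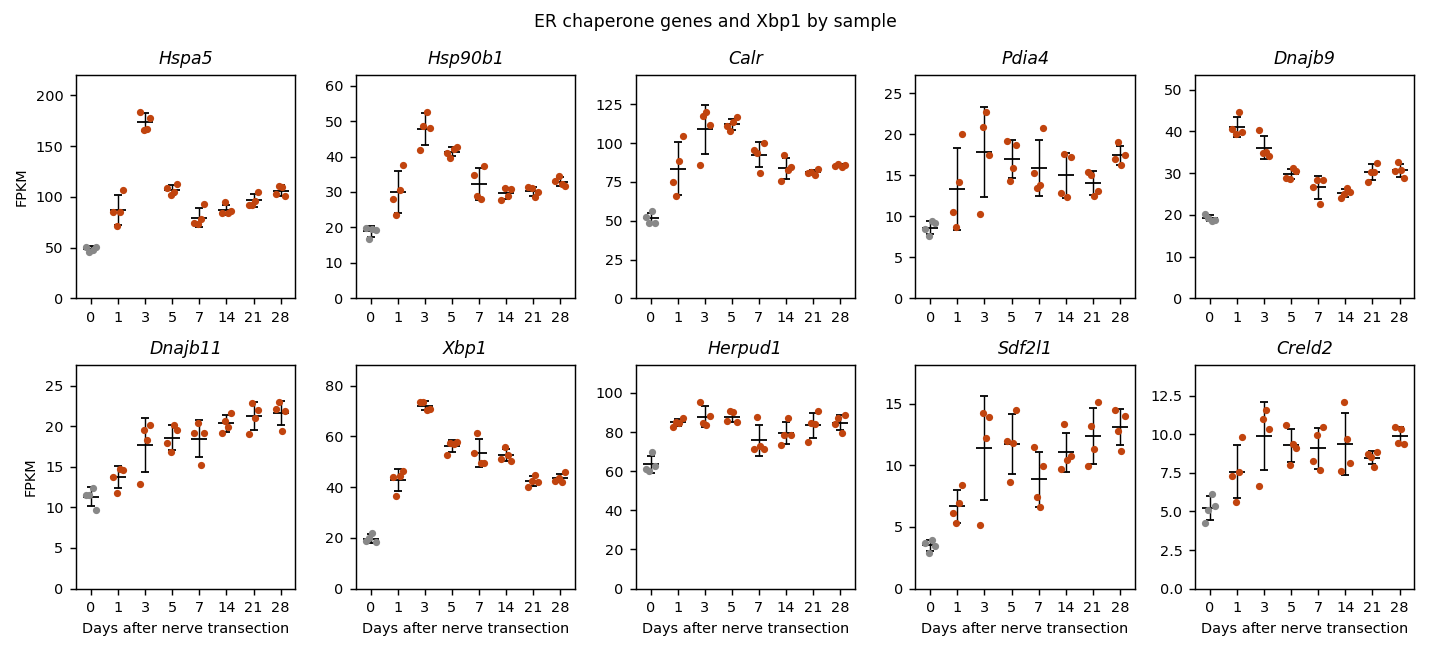
FPKM of the 10 genes in each of the 32 samples (points) by day after nerve transection, with the mean and SD of 4 samples as bars and grey points for 0 d. Hspa5 and Xbp1 stand highest at 3 d, Dnajb9 at 1 d, and Sdf2l1 and Dnajb11 at 28 d; without sample a of 3 d the mean of Sdf2l1 is highest at 3 d.

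Against 0 d, each gene was tested with limma on log2(FPKM + 1), with p-values adjusted over all 22071 genes tested, and a gene was called when its adjusted p was under 0.05 and its change was at least 1.5-fold. All 7 comparisons share the same 0 d samples, so they are not independent of each other. At 1 d 6 of the 10 genes were called higher, against 6.34% of all genes tested. The count was 9 of 10 at 3 d (13.2% of all genes; without sample a also 9 of 10, against 15.4%) and again 9 of 10 at 5 d (14.9%). It was 8 of 10 at both 7 d (15.4%) and 14 d (14.6%), and 9 of 10 at both 21 d (11.8%) and 28 d (14.2%). None of the 10 was called lower at any time point. Over days 1, 3, 5, 7, 14, 21 and 28 the log2 fold changes of the 10 genes had medians of 0.64, 0.98, 1.00, 0.72, 0.73, 0.65 and 0.85. For the 11943 genes whose mean FPKM reached 1, the corresponding medians were 0.12, 0.20, 0.31, 0.32, 0.32, 0.24 and 0.30.

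Those medians above 0 show that deposited FPKM of most expressed genes lay above 0 d, and the share of total fragments from mitochondrial genes was 14.5 to 18.2% at 0 d and 6.7 to 11.3% at 7 d; the part of this shift in the results was not tested. After scaling the samples to the median ratio of their genes, which brings the median change of all expressed genes close to 0, the counts of the 10 genes called higher were 4 at 1 d (3.93% of 22054 genes tested), 7 at 3 d (8.31%) and 5 at 5 d (6.6%). They were 2 at both 7 d (7.03%) and 14 d (6.6%), 3 at 21 d (6.41%) and 4 at 28 d (6.75%). The share of calls in the higher direction over all genes was 68.7 to 79.5% in deposited FPKM and 43.7 to 46.8% after this scaling. Xbp1 and Sdf2l1 were called higher at all 7 time points under both scalings. Hspa5 was called at 7 time points in deposited FPKM and at 5 after scaling, Hsp90b1 and Calr at 7 and 2, Pdia4 at 6 and 2, and Dnajb9 at 5 and 2. Dnajb11 and Creld2 were called at 6 time points in deposited FPKM and at 0 after scaling, and Herpud1 at 0 under both.

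**Figure D2:**
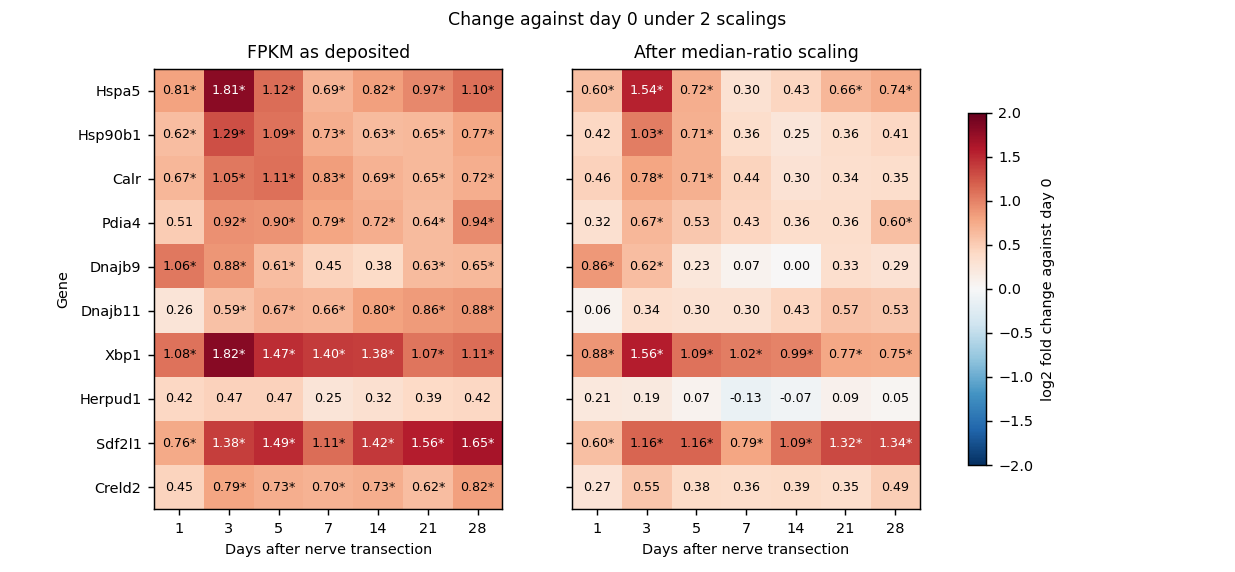
log2 fold change of each gene against 0 d by day after nerve transection, in FPKM as deposited (left) and after median-ratio scaling (right), with an asterisk for a call and red for higher. Xbp1 and Sdf2l1 carry an asterisk in every cell of both panels and Herpud1 in none.

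Hspa5 (ENSMUSG00000026864, chr2:34771970-34777547, plus strand of GRCm38) rose at 1 d, peaked at 3 d and did not return to its starting level. Its FPKM was 45.7, 48.0, 50.8 and 50.9 in the 0 d samples, 71.4, 84.6, 85.2 and 106 at 1 d, and 166, 167, 178 and 184 at 3 d. All 4 samples of 3 d lay above every other sample of the series. The 3 d mean of 174 ± 8.49 was 3.56-fold the 0 d mean, with a log2 fold change of 1.81 (SE 0.0828, adjusted p = 1.28e-16), and 1.78 without sample a; after median-ratio scaling it was 1.54.

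Between 1 d and 3 d Hspa5 rose by a log2 fold change of 1.00 (adjusted p = 9.53e-11), and from 3 d to 5 d it fell by 0.69 on the log2 scale (adjusted p = 3.02e-07). The 5 d samples held 102, 105, 108 and 113 FPKM. The 7 d samples, at 73.1, 74.3, 78.0 and 92.9 FPKM, had the lowest mean after 1 d, and the means then stood at 87.2 ± 5.10 at 14 d, 96.4 ± 6.00 at 21 d and 106 ± 5.05 at 28 d. Ordered by mean, the groups were 3 d, 5 d, 28 d, 21 d, 14 d, 1 d, 7 d and 0 d; 3 d and 0 d were separate from their neighbours, while every other neighbouring pair overlapped. At 28 d Hspa5 was 2.17-fold its 0 d mean and kept 45.9% of its rise at 3 d, both in deposited FPKM. After median-ratio scaling its log2 fold change against 0 d was 0.74 at 28 d and 1.54 at 3 d, so the share kept holds for deposited FPKM only. Against 3 d the 28 d level was lower by 0.70 on the log2 scale (log2 fold change -0.70, adjusted p = 7.37e-08).

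Hsp90b1 (ENSMUSG00000020048, chr10:86690209-86705509, minus strand) encodes Grp94, the Hsp90 chaperone of the ER. It was at 16.7, 19.3, 19.6 and 19.9 FPKM at 0 d and at 41.9, 47.9, 48.6 and 52.6 at 3 d, a 2.53-fold rise of the mean with no overlap (log2 fold change 1.29, SE 0.0965, adjusted p = 4.59e-12, and 1.35 without sample a). It rose by 0.67 on the log2 scale between 1 d and 3 d (adjusted p = 2.19e-06). In deposited FPKM 48.4% of the 3 d rise remained at 28 d (45.3% without sample a of 3 d). After median-ratio scaling the log2 fold change of Hsp90b1 was 1.03 at 3 d and 0.41 at 28 d. Its 1 d call was lost without sample d of 1 d (log2 fold change 0.50) or sample b of 0 d (0.56), its 14 d call without sample b of 0 d (0.57), and its step from 1 d to 3 d without sample b of 1 d (0.57), all being then below 1.5-fold. The exons of Hsp90b1 share 415 bases (10.3%) with the antisense pseudogene 1810014B01Rik, and the counting is not stated to use strand, so a small part of its signal cannot be assigned.

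Calr (ENSMUSG00000003814, chr8:84841850-84846934, minus strand), the lectin chaperone that binds glycoproteins and calcium, had its highest mean at 5 d, or at 3 d when sample a of 3 d was left out (mean of the other samples 117 FPKM). The 0 d samples were at 48.7, 48.9, 52.4 and 56.4 FPKM and the 5 d samples at 108, 111, 113 and 117 (2.18-fold, log2 fold change 1.11, SE 0.102, adjusted p = 3.73e-10). At 3 d sample a stood at 85.9 and the other samples at 112 to 120.2; the log2 fold change was 1.05 with it and 1.16 without it. By 28 d the 4 samples lay within 84.5 to 86.8 FPKM, still above every 0 d sample. As for Hsp90b1, the 1 d call was lost without sample d of 1 d (log2 fold change 0.55).

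Pdia4 (ENSMUSG00000025823, chr6:47796141-47813430, minus strand), a protein disulfide isomerase that forms and rearranges disulfide bonds, varied widely within time points. At 1 d its samples were at 8.67, 10.5, 14.2 and 19.97 FPKM, and the lowest overlapped the 0 d range of 7.54 to 9.37. It was not called there (log2 fold change 0.51, adjusted p = 0.04998), and without sample d of 1 d the change was 0.31 (adjusted p = 0.272); without sample a or b of 1 d it was called (0.60 and 0.68). At 3 d sample a was at 10.3 and the others at 17.5, 20.8 and 22.7. The 3 d log2 fold change was 0.92 (SE 0.197, adjusted p = 3.14e-04), or 1.15 without sample a. From 5 d to 28 d every sample lay above the 0 d range. The 28 d mean of 17.4 ± 1.15 kept 95.8% of the rise at 3 d, or 75.1% without sample a of 3 d, in deposited FPKM. After median-ratio scaling the log2 fold change was 0.67 at 3 d and 0.60 at 28 d. The 21 d call (0.64) was lost without sample b of 0 d (0.58).

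The J-proteins Dnajb9 (ERdj4) and Dnajb11 (ERdj3) are cochaperones that stimulate the ATPase of BiP, and their means were highest at opposite ends of the time course. Dnajb9 (ENSMUSG00000014905, chr12:44205559-44210326, minus strand) was at 18.5, 18.7, 19.2 and 20.2 FPKM at 0 d and at 39.3, 39.9, 40.5 and 44.7 at 1 d, its highest mean (2.15-fold, log2 fold change 1.06, SE 0.0637, adjusted p = 2.88e-13). Its mean was 36.2 ± 2.86 at 3 d (log2 fold change 0.88, or 0.83 without sample a), lay below the 1.5-fold limit at 7 d (log2 fold change 0.45) and 14 d (0.38), and was 30.7 ± 1.58 at 28 d. No denervated sample of Dnajb9 lay within the 0 d range. After median-ratio scaling the 14 d log2 fold change was 0.0021 (adjusted p = 0.997).

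Dnajb11 (ENSMUSG00000004460, chr16:22857845-22879634, plus strand) was not called at 1 d (log2 fold change 0.26, adjusted p = 0.0663) and had its highest mean at 28 d. Its 0 d samples were at 9.68, 11.5, 11.6 and 12.5 FPKM and its 28 d samples at 19.5, 21.9, 22.2 and 23.0, with no overlap (1.92-fold, log2 fold change 0.88, SE 0.105, adjusted p = 5.36e-08). The 3 d value, 0.59, rose to 0.73 without sample a. Leaving out sample d of 0 d or any of samples b, c and d of 3 d put the 3 d change below 1.5-fold, the lowest value being 0.53. After median-ratio scaling the 28 d change was 0.53, and no time point was called.

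Xbp1 (ENSMUSG00000020484, chr11:5520659-5525893, plus strand) encodes the transcription factor whose mRNA is spliced by Ire1; gene-level FPKM cannot separate its spliced and unspliced forms. The 0 d samples were at 18.2, 18.7, 19.8 and 22.1 FPKM, the 1 d samples at 36.7, 43.9, 44.6 and 46.4, and the 3 d samples at 70.5, 70.8, 73.6 and 73.6. No denervated sample overlapped 0 d, and the 3 d samples lay above all others. The mean rose 3.66-fold by 3 d (log2 fold change 1.83, SE 0.0678, adjusted p = 1.46e-18), of which 0.74 came between 1 d and 3 d (adjusted p = 6.91e-10). Sample a of 3 d, which stood apart in other genes, did not stand apart here: without it the change was 1.82.

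The later levels of Xbp1 lay in a pair of ranges. Its samples ranged from 52.9 to 58.0 FPKM at 5 d, 49.4 to 61.4 at 7 d and 50.5 to 55.8 at 14 d, which overlap. They ranged from 40.1 to 44.9 at 21 d and 42.1 to 46.0 at 28 d, below all samples of 5 to 14 d and overlapping 1 d; the step from 14 d to 21 d was below 1.5-fold and not called. The 28 d level was lower than at 3 d by a log2 fold change of -0.71 (adjusted p = 1.47e-09). In deposited FPKM it stayed 2.21-fold above 0 d (log2 fold change 1.11, adjusted p = 8.89e-14), with 45.6% of the 3 d rise kept. After median-ratio scaling the 28 d change against 0 d was 0.75. Of the 10 genes, Xbp1 had the largest median-ratio-scaled change at 1 d and 3 d (0.88 and 1.56), close to Dnajb9 at 1 d (0.86) and Hspa5 at 3 d (1.54).

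Herpud1 (ENSMUSG00000031770, chr8:94386438-94395377, plus strand), a membrane protein that organises the complex for ER-associated degradation, was the most abundant of the 10 at 0 d and had the smallest peak, 1.39-fold at 3 d. Its 0 d samples were at 60.3, 61.0, 62.8 and 69.6 FPKM and its 5 d samples at 85.2, 85.8, 90.1 and 90.5. Every one of the 28 denervated samples lay above the highest 0 d sample, and the adjusted p was at most 0.00224, but the largest change, 0.47 at 3 d and 5 d, was below 1.5-fold; without sample a the 3 d change was 0.43 and the highest mean was at 5 d. The direction depended on the scaling, since after median-ratio scaling the log2 fold change was -0.13 at 7 d and -0.074 at 14 d (adjusted p = 0.225 and 0.541).

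Sdf2l1 (ENSMUSG00000022769, chr16:17130138-17132383, minus strand), which works with Dnajb11 and BiP in the ER lumen, was the scarcest of the 10 and had the largest late change. Its 0 d samples were at 2.90, 3.47, 3.69 and 3.90 FPKM, its 1 d samples at 5.28, 6.10, 6.95 and 8.42, and its 28 d samples at 11.2, 12.8, 14 and 14.5. The groups did not overlap, and the 28 d mean was 3.76-fold that of 0 d (log2 fold change 1.65, SE 0.208, adjusted p = 1.40e-07); on the log2(FPKM + 1) scale the change of so low a gene is understated. At 3 d sample a was at 5.19 and the others at 12.2, 13.9 and 14.2, and the log2 fold change was 1.38 with it and 1.69 without it, so that without it the 3 d mean lay above that of 28 d. The step of 0.62 from 1 d to 3 d (adjusted p = 0.0232) was not called once any of samples a and b of 1 d or b, c and d of 3 d was left out, nor after median-ratio scaling (0.56).

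Creld2 (ENSMUSG00000023272, chr15:88819646-88826683, plus strand), an ER protein induced by ER stress and secreted in part, was at 4.28, 5.10, 5.35 and 6.14 FPKM at 0 d and at 9.35, 9.41, 10.3 and 10.5 at 28 d (1.90-fold, log2 fold change 0.82, SE 0.145, adjusted p = 2.95e-05). At 1 d the lowest sample, 5.61, overlapped 0 d and the change of 0.45 was not called. At 3 d sample a was again low, at 6.64 against 10.3 to 11.6, with a log2 fold change of 0.79 and of 0.95 without it. From 3 d onwards no sample overlapped 0 d in deposited FPKM, although no time point was called after median-ratio scaling (largest value 0.55 at 3 d). The 21 d call (0.62) was lost without sample a of 0 d (0.54).

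The steps between successive time points do not use 0 d. From 1 d to 3 d 4 of the 10 genes were called higher (Hspa5, Hsp90b1, Xbp1 and Sdf2l1), against 6.63% of all genes. The count was 2 without sample b of 1 d, 3 after median-ratio scaling, 1 after quantile normalization and 5 without sample a of 3 d. From 3 d to 5 d only Hspa5 of the 10 was called lower, against 2.05%. From 5 d to 7 d, 7 d to 14 d, 14 d to 21 d and 21 d to 28 d limma called 0 of the 10, also after median-ratio scaling. Of all 22071 genes 99, 83, 20 and 35 were called higher and 46, 57, 80 and 9 lower, so 0 of 10 lies near that share. Some steps passed the adjusted p but not the fold limit. Hspa5 (-0.43, adjusted p = 0.00365) and Hsp90b1 (-0.36, 0.0465) fell from 5 d to 7 d. From 14 d to 21 d Xbp1 fell (-0.30, 0.0154) and Dnajb9 rose (0.25, 0.0421). At an unadjusted p under 0.05 the counts of the 10 were 5, 0, 2 and 0, a limit at which all genes were not counted. At 28 d against 3 d 2 of the 10, Hspa5 and Xbp1, were called lower, against 4.54% of all genes; after median-ratio scaling Hsp90b1 was added (log2 fold change -0.62).

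Because whole muscle was sequenced, fewer cells of a type and less RNA per cell cannot be told apart, and other cell types than muscle fibres can contribute. The summed FPKM of 6 macrophage markers was 139 to 206 at 0 d, 219 to 332 at 1 d and 288 to 984 at 3 d. It was 391.5 to 1186 at 7 d, 398 to 935 at 14 d and 455 to 539 at 28 d. All 6 were called higher at each time point from 3 d on, against 11.8 to 15.4% of all genes. After median-ratio scaling 5 or 6 were, against 6.41 to 8.31%. The summed FPKM of 6 fibroblast markers was 433 to 573 at 0 d, 258 to 681 at 3 d, 646 to 780.2 at 5 d, 581 to 692 at 21 d and 546 to 732 at 28 d. At 5 d 3 of the 6 fibroblast markers were called higher, Lum, Col1a1 and Col3a1 (53.7 ± 6.52 to 181 ± 23.3 FPKM), against 14.9% of all genes. After median-ratio scaling 2 were, against 6.6%. Dcn, the largest part of the sum at 0 d, was not called (275 ± 40.7 to 243 ± 12.7), nor was Pdgfra (8.47 ± 0.640 to 9.14 ± 0.651). The 6 markers of B and plasma cells, in which Xbp1 is known to be high, summed to 3.19 to 4.16 FPKM at 0 d, 2.00 to 4.57 at 3 d and 5.63 to 7.97 at 28 d. Of the 5 tested 1 was called higher at 28 d, Jchain (0.161 ± 0.0875 to 2.25 ± 1.43 FPKM), which lies near the 14.2% of all genes. No marker gene was at 0 in all samples of a time point. Their part in the results was not tested, but the spread between samples of the same time point was set beside them. After each time point's mean was removed, Pearson's r with the macrophage sum over the 32 samples was 0.75 for Pdia4, 0.73 for Hsp90b1, 0.69 for Sdf2l1, 0.68 for Calr, 0.56 for Dnajb11 and 0.50 for Creld2. It was 0.21 for Hspa5, 0.02 for Dnajb9, -0.06 for Xbp1 and -0.30 for Herpud1.

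Leaving out sample a of 3 d gave 0.65 for Pdia4, 0.70 for Hsp90b1, 0.53 for Sdf2l1, 0.55 for Calr, 0.33 for Dnajb11, 0.30 for Creld2, 0.35 for Hspa5, 0.32 for Dnajb9, -0.03 for Xbp1 and -0.17 for Herpud1. The fibroblast sum over the 32 samples gave r of 0.77 for Sdf2l1, 0.76 for Pdia4, 0.71 for Calr, 0.68 for Hsp90b1, 0.67 for Dnajb11, 0.52 for Creld2, 0.15 for Hspa5, 0.01 for Dnajb9, 0.00 for Xbp1 and -0.35 for Herpud1. Without that sample it ran from -0.21 (Herpud1) to 0.67 (Hsp90b1), with 0.64 for Pdia4, 0.58 for Sdf2l1, 0.57 for Calr and 0.44 for Dnajb11. It was then 0.43 for Dnajb9, 0.35 for Hspa5, 0.27 for Creld2 and 0.07 for Xbp1. With the myofibre sum r ran from -0.41 (Pdia4 and Creld2) to 0.14 (Herpud1) and was -0.31 for Hspa5 and -0.05 for Xbp1. Samples share their libraries' composition, so these values are descriptions. Among the genes themselves within time points, Calr and Pdia4 had an r of 0.88, Hsp90b1 and Pdia4 0.87, Hspa5 and Hsp90b1 0.66, and Hspa5 and Xbp1 0.15.

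**Figure D3:**
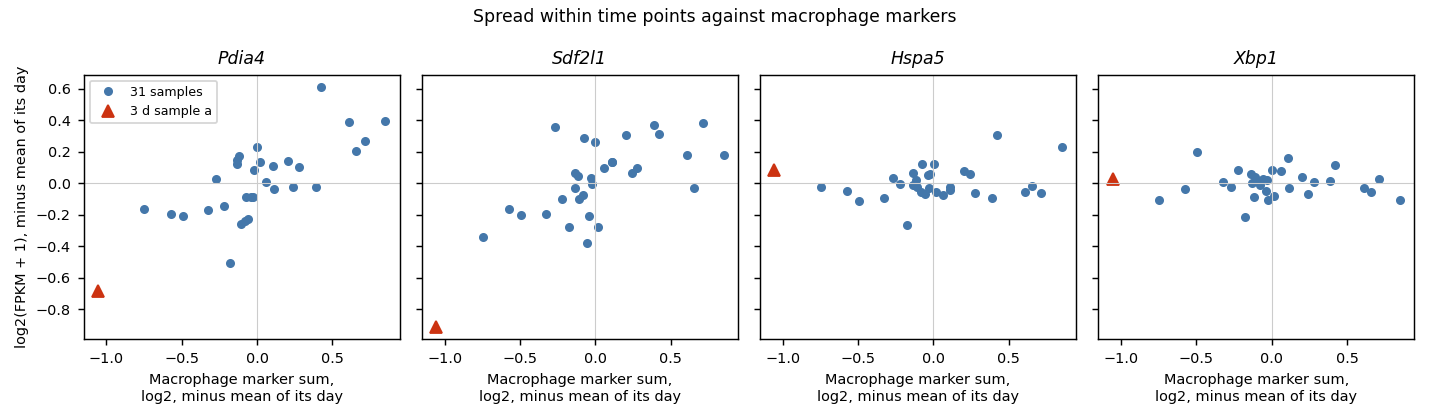
Deviation of each sample from its time point's mean in log2(FPKM + 1) of Pdia4, Sdf2l1, Hspa5 and Xbp1 (vertical axes) against that of the summed macrophage markers (horizontal axes, log2), for 31 samples (circles) and sample a of 3 d (triangle); the 4 genes were chosen after their values were seen. Sample a of 3 d is lowest on the horizontal axis, and it is lowest for Pdia4 and Sdf2l1 but near 0 for Xbp1.

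Over all 32 samples, time points included, Pearson's r on log2(FPKM + 1) between the 45 pairs of the 10 genes ran from 0.23 (Dnajb9 and Dnajb11) to 0.95 (Hsp90b1 and Calr), with a median of 0.70. Among 11933 other genes whose mean FPKM reached 1, those most like Xbp1 were Vcp (r = 0.98), the ATPase that extracts proteins from the ER membrane, Ctps2 (0.97), Vcp-rs (0.97), Nup93 (0.97) and Pes1 (0.97). Vcp-rs is a related sequence of Vcp, and reads could be split between them. Those most like Hspa5 were Nudcd2 (0.94), the RNA helicase Dhx15 (0.94), the splicing factor Sf3b1 (0.93), Cdc27 (0.93) and the nucleolar protein Npm1 (0.92). The time points and the composition of the libraries are shared by all these genes.

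Genes of the same pathway were counted from lists by role. Of 22 further folding and redox genes of the ER, 4, 9, 13, 11, 8, 8 and 10 were called higher on days 1, 3, 5, 7, 14, 21 and 28, and none was called lower; after median-ratio scaling the counts were 2, 7, 3, 3, 3, 4 and 4. Without sample a of 3 d the day 3 count was 12 in deposited FPKM, against 15.4% of all genes. The shares of all genes called higher on these days were 6.34, 13.2, 14.9, 15.4, 14.6, 11.8 and 14.2%, and after scaling 3.93, 8.31, 6.6, 7.03, 6.6, 6.41 and 6.75%. Canx, the membrane-bound partner of Calr in glycoprotein folding, rose from 26.3 ± 1.71 to 65.9 ± 0.700 FPKM at 3 d (log2 fold change 1.29, adjusted p = 2.49e-15, and 1.29 without sample a) and was called at 6 time points under both scalings. The disulfide isomerases P4hb and Pdia6 rose from 66.6 ± 3.69 to 155 ± 7.91 at 5 d (1.21) and from 15.5 ± 0.806 to 37.3 ± 6.61 at 3 d (1.20, or 1.34 without sample a). An ERSE match was present in the windows of 4 of the 18 genes of this list that have one, Canx, Pdia6, Dnajc3 and Ero1b; Dnajc3 (log2 fold change 0.32 at 3 d) and Ero1b (-0.12) were not called at any time point, Dnajc3 because its changes stayed under the fold threshold.

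Of 18 genes of ER-associated degradation, in which misfolded proteins are moved to the cytosol for the proteasome, 5, 9, 11, 12, 10, 6 and 10 were called higher on the same days (2, 5, 3, 3, 3, 3 and 2 after median-ratio scaling), against the same shares of all genes, and 10 on day 3 without sample a. Ubxn4, which recruits Vcp to the ER membrane, rose from 20.3 ± 1.32 to 97.4 ± 6.54 FPKM at 5 d, a log2 fold change of 2.21 (adjusted p = 3.83e-19) that exceeds those of the 10 genes at any time point. The membrane channel protein Derl1 rose from 25.5 ± 1.57 to 88.8 ± 2.07 at 5 d (1.76), and the ubiquitin-conjugating enzyme Ube2g2 from 26.3 ± 1.09 to 59.7 ± 4.26 at 14 d (1.15). Both stayed called after median-ratio scaling at these time points (1.38 and 0.76).

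The 3 sensors differed in level and change. Atf6 rose from 5.82 ± 0.377 to 16.1 ± 1.04 FPKM at 3 d (log2 fold change 1.32, adjusted p = 1.75e-15, and 1.36 without sample a) and was called at all 7 time points, but not at 1 d and 5 d after median-ratio scaling. Ern1, which encodes Ire1, was at 2.28 ± 0.401 at 0 d and 4.24 ± 0.503 at 1 d (0.68, adjusted p = 7.29e-07), the only time point at which it was called, and not after median-ratio scaling (0.54). Eif2ak3, which encodes Perk, was called at no time point. Its highest mean, 2.19 ± 0.410 at 28 d against 1.74 ± 0.191, gave 0.21 (adjusted p = 0.190). Without sample a of 3 d its 3 d change was 0.33 (adjusted p = 0.0169 in limma) in place of 0.17, above that of 28 d but still not called. Of all 9 sensor and processing genes, 3 or 4 were called higher at each time point and 0 to 2 after median-ratio scaling, with at most 1 lower, against 6.34 to 15.4% and 3.93 to 8.31% of all genes; on day 3 the count was 3, or 4 without sample a. The others named were Creb3, a membrane-bound transcription factor related to Atf6 (10.1 ± 0.532 to 28.6 ± 1.37 FPKM at 5 d, 1.42), and Atf6b (4.61 ± 0.730 to 8.62 ± 0.533 at 5 d, 0.79); after median-ratio scaling Creb3 stayed called (1.05) and Atf6b did not (0.45).

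Of the 8 genes of the Perk and Atf4 arm 7 were called higher at 1 d, with a median log2 fold change of 1.21, against 6.34% of all genes, and all but Ddit3 were among them; after median-ratio scaling the count was again 7, against 3.93%. At 3 d 4 were called higher, against 13.2% of all genes (again 4, against 15.4%, without sample a), and after scaling 4 were higher and 1 lower, against 8.31% of all genes called higher. By 5 d 2 were called higher, against 14.9%, and 1 lower, against 852 of 22071 genes, with a median of 0.12; after scaling 1 was higher and 2 lower, with a median of -0.11. Atf4 rose from 72.6 ± 2.77 to 198 ± 10.3 FPKM at 1 d (1.44, adjusted p = 3.54e-13) and was called lower at 7 d (log2 fold change -0.63), and after median-ratio scaling at every time point from 5 d on. Ppp1r15a, a phosphatase subunit that ends the Perk signal, rose from 9.63 ± 0.605 to 63.9 ± 1.71 at 1 d (2.61), was 14 ± 2.02 at 28 d and was called at 5 time points, but after median-ratio scaling only on days 1 and 3. The transcription factor Atf3 rose from 2.14 ± 0.335 to 21.7 ± 6.73 at 1 d (2.82), stayed at 18.9 ± 1.53 at 28 d and was called at all 7 time points. Chac1, a glutathione-degrading enzyme, was called higher at 1 d (1.00) and lower on days 5, 7, 14, 21 and 28, and it fell from 34.5 ± 11.5 to 4.87 ± 0.770 FPKM at 5 d (log2 fold change -2.55, adjusted p = 4.74e-11) and was -2.21 at 28 d. Ddit3, which encodes Chop, was at 5.63 ± 0.845 at 0 d and 5.71 ± 0.679 at 1 d and was called at no time point in deposited FPKM.

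**Figure D4:**
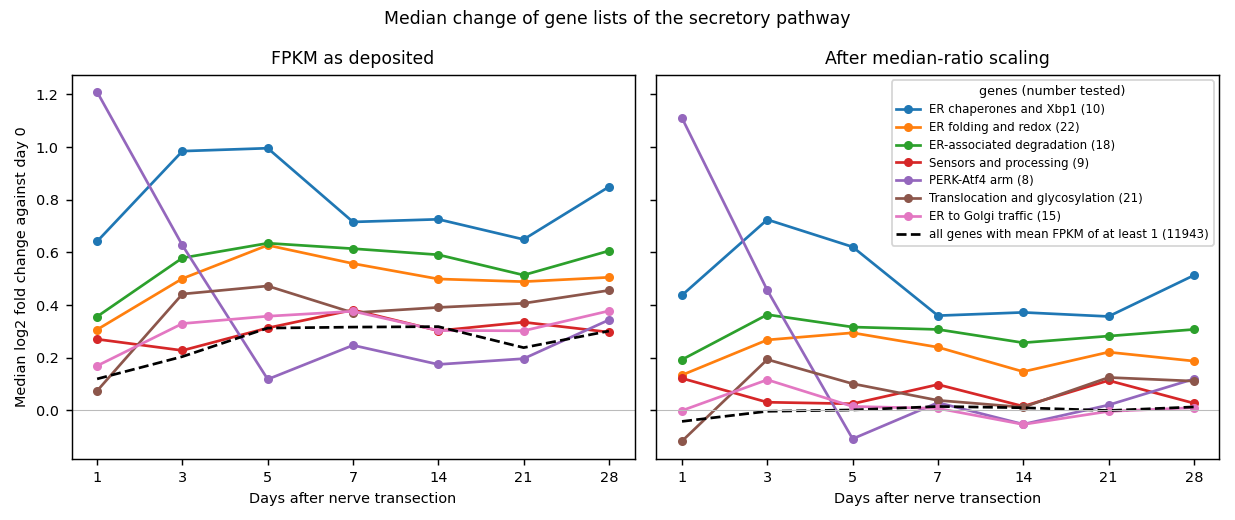
Median log2 fold change against 0 d of each gene list (coloured lines) and of 11943 genes whose mean FPKM reached 1 (dashed), by day after nerve transection, in deposited FPKM (left) and after median-ratio scaling (right); numbers in the key are genes tested. The median of the 10 ER genes lies above the dashed line at all 7 time points in both panels, while single genes such as Herpud1 at 7 d (0.25 in deposited FPKM) lie below it, and the Perk and Atf4 arm is highest at 1 d, at 1.21 in deposited FPKM.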

How the data were processed

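The deposited table holds FPKM per gene for 32 samples, which the authors made from paired-end reads; the submitters' processing notes name CASAVA, HISAT2 2.1.0, DESeq2 and GRCm38, and the counting tool and its use of strand are not given in the sources used here. The library kit is named differently in the labels and in the study's methods. Gene symbols and exon lengths came from GENCODE M21 (33356 of 33397 genes matched), and fragments were recovered from FPKM, with 99.3 to 99.4% of values below 200 fragments whole within 0.05. Genes that reached an FPKM of 0.1 in 4 or more samples were kept, and limma 3.58.1 (R 4.3.3, variance trend, Benjamini-Hochberg adjustment) was fitted to log2(FPKM + 1) of all 32 samples. On data simulated for 3 d against 0 d, 157 of 200 genes changed 2-fold were called (78.5%), with 3 of the unchanged among 20778 tested. The simulation held no shift shared by most genes, as the deposited FPKM do, so it does not give the rate of false calls in these data. The 10 genes, the lists and the tests were chosen with earlier results of these data known. From each list the 3 called genes with the largest change against 0 d and up to 2 with the highest level were named, beside the 3 sensors and the 5 genes most like Hspa5 and Xbp1; Ddit3, single marker genes and genes with a promoter match were named after their values were seen. Correlations within time points, promoter motif counts and the shares of a rise kept at 28 d were also added after the data were seen. Alternatives were a pseudocount of 0.1, no filter, median-ratio scaling, TPM, quantile normalization, fits of 8 samples, no variance trend and leaving out each sample. Promoter sequences are RefSeq's, GRCm38.p6; all 10 genes matched by symbol, and other genes by symbol or Entrez gene ID.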

Additional observations from a re-analysis of the deposited data

Results flagged for a closer look

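In each time point's 4 samples of each of the 10 genes, the gap of the highest or lowest sample to its neighbour was set against the group's range. Of 80 such groups 3 were marked, and about 4 are marked by chance, since about 1 in 20 groups is. Dnajb9 at 3 d was highest in sample a (40.4 FPKM, the others 34.2 to 35.2), Xbp1 at 5 d was lowest in sample a (52.9, the others 57.1 to 58.0), and Herpud1 at 7 d was highest in sample b (87.8, the others 71.3 to 72.9).

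The change against 0 d differed between time points by at least 1.5-fold, with an adjusted p under 0.05 in limma's test of the step itself, for 4 genes. By the adjusted p alone, 7 of the 10 genes differed from 1 d to 3 d, 3 from 3 d to 5 d and 6 from 3 d to 28 d. Directions were mixed: from 1 d to 3 d Dnajb9 was lower (-0.18), and from 3 d to 28 d Dnajb11 was higher (0.29). From 5 d to 7 d and from 14 d to 21 d 2 genes differed each. All genes were not counted at this looser limit, so these counts have no share beside them. From 1 d to 3 d the log2 fold change was 1.00 for Hspa5, 0.67 for Hsp90b1, 0.74 for Xbp1 and 0.62 for Sdf2l1. From 3 d to 5 d it was -0.69 for Hspa5, and from 3 d to 28 d -0.70 for Hspa5 and -0.71 for Xbp1.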

How the results depend on the processing

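With a pseudocount of 0.1, no filter or no variance trend, each of the 70 tests of the 10 genes against 0 d kept its side of the threshold, while the pseudocount of 0.1 raised the genes called among all tested on days 1, 3, 5, 7, 14, 21 and 28 from 1950 to 3621, 4254 to 6847, 4148 to 6934, 4308 to 7267, 4075 to 7138, 3466 to 6057 and 4049 to 7277. Rescaling to TPM gave 3278, 7107, 7418, 7569, 5675 and 7169 on days 1, 5, 7, 14, 21 and 28, and added 7 calls among the 10 genes. Scaling moved the 10 genes most. Median-ratio scaling left 5, 2, 2, 3 and 4 called on days 5, 7, 14, 21 and 28, and quantile normalization 5, 2, 3, 4 and 5, with 1 in place of 4 from 1 d to 3 d; the cause was not tested. Herpud1 turned negative at 7 d under both (-0.13 and -0.024) and at 14 d under the former (-0.074). Leaving out 1 sample gave 4 to 7 of the 10 genes called on day 1, 8 to 9 on days 3 and 21, 7 to 8 on day 14 and 2 to 5 from 1 d to 3 d (2 without sample b of 1 d, 5 without sample d); 9, 8 and 9 were called at 5, 7 and 28 d in every case. No paired analysis was possible because the table's columns end in letters or, for 0 d, numbers that are not tied to the labelled replicate numbers, so the replicate block was not run. Depth limits Sdf2l1 and Creld2 most.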

Other observations

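Of 21 genes of translocation into the ER and N-glycosylation, 2, 7, 7, 7, 3, 3 and 8 were called higher on days 1, 3, 5, 7, 14, 21 and 28, and 1, 2, 1, 0, 0, 0 and 0 after median-ratio scaling, with at most 1 lower. Over all genes 6.34, 13.2, 14.9, 15.4, 14.6, 11.8 and 14.2% were called higher, and 3.93 to 8.31% after scaling. Without sample a of 3 d the day 3 count was 8. The counts on days 14 and 21 and after scaling lie near or below the share of all genes. The signal peptidase subunit Spcs3 rose from 14.5 ± 0.971 to 35.8 ± 2.29 FPKM at 3 d (log2 fold change 1.25), the translocon-associated Ssr2 from 18.8 ± 1.05 to 39.6 ± 3.31 (1.04), and Stt3a, a catalytic subunit of oligosaccharyltransferase, from 4.37 ± 0.165 to 9.47 ± 0.488 at 5 d (0.96). The most abundant, Spcs1 and Ssr3, were not called at any time point, with largest values of 0.56 at 21 d and 0.35 at 3 d. Of 15 genes of ER to Golgi traffic 3, 4, 3, 2, 2, 1 and 2 were called higher on the same days and 0 or 1 lower, against the same shares of all genes; from 7 d on, 1 or 2 of 15 lies near or below the 11.8 to 15.4% of all genes. After median-ratio scaling the counts were 1, 2, 1, 1, 1, 1 and 1, with list medians between -0.05 and 0.12. Without sample a of 3 d the day 3 count was 6 in place of 4. The cargo receptor Surf4 rose from 33.3 ± 1.08 to 97.0 ± 6.04 FPKM at 3 d (1.51, or 1.54 without sample a), and the coat subunit Sec24a from 2.90 ± 0.307 to 7.09 ± 0.314 at 1 d (1.06). Sar1b, the GTPase that starts COPII coat assembly, was called lower from 7 d on and fell from 538 ± 40.4 to 147 ± 13.4 FPKM by 28 d (log2 fold change -1.87). Tmed2 was not called, with 0.42 at 3 d.

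An exact ERSE or ERSE-II match was present in the promoter windows of 43 other genes, of which 28 were tested. At 3 d 4 of the 28 were called higher, Canx, Pdia6, Acacb and Syvn1, and 1 lower, Lgalsl (log2 fold change -1.93), against 13.2% of all genes called higher; the median of the 28 was 0.14. Leaving out sample a of 3 d gave 5 called higher, Nucb1 being added, and the median was 0.21.

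The sums of other marker lists were as follows. Neutrophil markers summed to 1.28 to 2.26 FPKM at 0 d and 8.81 to 92.3 at 1 d, and sample d of 1 d was highest. Schwann cell markers went from 64.4 to 142 at 0 d to 6.83 to 18.4 at 3 d, and endothelial markers from 77.2 to 88.5 to 45.3 to 63.0. Cycling markers stood at 0.383 to 0.788 at 0 d and 1.35 to 9.32 at 3 d, and adipocyte markers at 25.9 to 67.3 at 0 d and 13.2 to 64.4 at 3 d, which overlap. Satellite cell markers stood at 1.75 to 1.90 at 0 d and 4.03 to 4.80 at 14 d, where 1 of the 2 was called higher, against 14.6% of all genes. At 3 d 3 of 3 cycling markers were called higher, against 13.2% of all genes. Called lower were 2 of 4 Schwann cell, 3 of 4 endothelial and 1 of 3 adipocyte markers, against 1330 of 22071 genes. Without sample a of 3 d the counts called lower were 1, 1 and 0, against 1229 of 22009 genes. Their part in the results of the 10 genes was not tested.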
